A study of Mus musculus with 12 samples.

Results

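The subject is a set of 9 chemokine receptor genes expressed by CD8 T cells: Ccr2, Ccr4, Ccr7, Ccr8, Cxcr3, Cxcr4, Cxcr5, Cxcr6 and Cx3cr1. They were chosen by name, and each symbol matched 1 of the 55487 gene identifiers counted in both deposited tables through GENCODE mouse release M21. RNA was sequenced from CD8+ T cells of OT-1 mice, a mouse line whose CD8 T cells share a transgenic receptor for an ovalbumin peptide. Female and Male cells were taken from spleen and activated for 3 days with beads that engage CD3 and CD28 together with recombinant IL2. WT and KD cells were another batch of male CD8+ T cells that was electroporated and then grown for 3 days. The labels do not say whether beads were used in that batch, how many mice were used or how old they were. KD cells were given Cas9 with a guide RNA aimed at Kdm5d, a Y-linked histone demethylase gene, and WT cells were given guide RNA without Cas9. Each of the 4 groups had 3 samples. Because WT cells lacked Cas9, the presence of Cas9 and the loss of Kdm5d cannot be told apart where KD and WT differ.

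Chemokine receptors are G protein-coupled receptors that steer cells along gradients of small secreted proteins, the chemokines. In CD8 T cells the set of receptors changes with activation state. CCR7 holds naive and central memory cells in the T cell zones of lymph nodes by binding CCL19 and CCL21, and CXCR4 binds CXCL12 in bone marrow and lymphoid stroma. CXCR3, CCR2, CXCR6 and CX3CR1 are receptors of effector and memory cells that enter inflamed tissue. Ligand binding releases inhibitory Gi proteins, which act through PI3K-gamma and Rac exchange factors on the cytoskeleton, while GRK kinases, arrestins and RGS proteins switch the signal off.

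Total counts per library ran from 78748647 to 110803318, so that 3 counts, taken as the floor of detection, correspond to 0.0271 to 0.0381 counts per 1000000 (CPM). Floors cover counting error only. Kdm5d was at 50.9 CPM ± 1.33 (SD, n = 3) in Male, 50.9 CPM ± 2.22 (SD, n = 3) in WT and 22 CPM ± 0.763 (SD, n = 3) in KD, and the Female libraries held 0 to 2 counts. The 7 T cell genes were Cd3d, Cd3e, Cd3g, Cd247, Cd8a, Cd8b1 and Trac. They summed to 1786 to 1804 CPM in Female, 1654 to 1691 in Male, 2015 to 2073 in WT and 1852 to 1902 in KD. At an edgeR adjusted p under 0.05, 4 of the 7 were lower in Male and 4 in KD, and none was higher. Of all genes, 26.3% were lower in Male and 18.4% in KD at that threshold. Markers of other cells that carry these receptors summed to far less than the T cell genes: B cell genes summed to 3.81 to 6.41 CPM with Ms4a1 at 0 counts in all libraries, and myeloid genes to 2.27 to 7.23 CPM. Nothing in the labels says that the 3 samples of a group came from separate mice or cultures, so the tests measure only the spread between these samples, which may be technical. In bulk RNA, fewer cells with a receptor and less receptor RNA per cell cannot be told apart.

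Of the 9 genes, 6 lie on mouse chromosome 9. Ccr2 (ENSMUSG00000049103, chr9:124101950-124113557, plus strand) and Cxcr6 (ENSMUSG00000048521, chr9:123806475-123811760, plus strand) sit in a stretch of receptor genes, and Cxcr6 lies wholly inside an intron of Fyco1 on the opposite strand. Cx3cr1 (ENSMUSG00000052336, chr9:119901616-120069879, minus strand) and Ccr8 (ENSMUSG00000042262, chr9:120092114-120094906, plus strand) are neighbours 22235 bases apart. Ccr4 (ENSMUSG00000047898) lies at chr9:114490316-114504916 on the minus strand, and Cxcr5 (ENSMUSG00000047880) at chr9:44511787-44561877 on the minus strand, with an exon that overlaps an exon of Bcl9l on the other strand. The others are Ccr7 (ENSMUSG00000037944, chr11:99144196-99155077, minus strand), Cxcr4 (ENSMUSG00000045382, chr1:128588199-128592293, minus strand) and the X-linked Cxcr3 (ENSMUSG00000050232, chrX:101731535-101734269, minus strand). All positions are from GENCODE M21 on GRCm38, the assembly also called mm10.

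Sequences upstream of 7 of the genes were available from RefSeq (GRCm38.p6), each the 250 bases before the RefSeq start. That start can differ from the GENCODE one. The windows of Ccr4 and Cx3cr1 lie wholly within the gene as GENCODE annotates it, and the Ccr2 window mostly. Those of Cxcr3, Ccr8 and Cxcr6 reach into the gene in part. Cxcr4 had 19 CG dinucleotides there and a GC content of 61.2%, whereas Ccr2 had 1 CG and 37.2% GC. The other 5, Ccr4, Ccr8, Cxcr3, Cxcr6 and Cx3cr1, had 1 to 4 CGs, and the median over 32851 mouse promoters was 6. The upstream windows of Cxcr6 and Cxcr4 are shown because these receptors differed in opposite directions between KD and WT. Both end 10 bases before the start, are written in the direction of transcription, and carry each CG in capitals. The Cxcr6 window is chr9:123806227-123806466 on the plus strand and the Cxcr4 window is chr1:128592310-128592549 on the minus strand.
Cxcr6: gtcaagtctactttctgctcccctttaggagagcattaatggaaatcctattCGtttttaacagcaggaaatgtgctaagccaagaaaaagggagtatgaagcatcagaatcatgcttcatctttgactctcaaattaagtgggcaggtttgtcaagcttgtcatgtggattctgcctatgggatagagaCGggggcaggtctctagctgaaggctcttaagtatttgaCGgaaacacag
Cxcr4: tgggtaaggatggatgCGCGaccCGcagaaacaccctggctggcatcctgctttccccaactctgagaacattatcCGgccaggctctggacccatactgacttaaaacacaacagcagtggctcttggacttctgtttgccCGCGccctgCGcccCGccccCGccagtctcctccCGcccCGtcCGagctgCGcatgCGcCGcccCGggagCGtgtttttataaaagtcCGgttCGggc

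Short motifs were searched on both strands of the same windows, and a match is only a match of letters. The interferon-stimulated element GAAANNGAA was found upstream of Ccr2 alone among the 7, and in 7.13% of all promoters. It is shown because Ccr2 gave the largest difference of the 9 receptors between the sexes. The match, in capitals, reads on the plus strand as the reverse complement of the motif and begins 86 bases before the RefSeq start, within an exon of another Ccr2 transcript in GENCODE (chr9:124102087-124102116).
Ccr2: tatctccgccTTCTCTTTCtgcaggaaact
The E-box CAGGTG was found upstream of Ccr4 and Cxcr3, and in 17.2% of promoters. The T-box AGGTGTGA, the STAT element TTCNNNGAA, the KLF element GGGTGTGG and the FOXO element TGTTTAC were found in none of the 7 windows, and in 1.12%, 7.02%, 3.2% and 3.17% of all promoters.

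Levels of different genes were compared as CPM per kilobase of annotated exon. In Female cells Ccr7 was the most abundant receptor transcript, at 65.1 CPM per kilobase ± 2.09 (SD, n = 3), ahead of Cxcr4 at 25.7, Cxcr3 at 16.9, Cxcr6 at 13.8 and Ccr4 at 10.5. Ccr2 followed at 3.7, Cxcr5 at 1.16, Ccr8 at 0.18 and Cx3cr1 at 0.0634, and in this group no 2 neighbours in the order overlapped. Male cells also had Ccr7 first, at 34.6 CPM per kilobase ± 1.1 (SD, n = 3). There Ccr2 came after Cxcr4, at 19.5, and its samples overlapped those of Cxcr4, at 20.3.

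The electroporated cells had another order. In WT the highest receptor was Cxcr6, at 67 CPM per kilobase ± 1.21 (SD, n = 3), then Ccr2 at 51.7 and Cxcr3 at 25.7. Cxcr4 at 13.1 and Ccr7 at 12.8 overlapped, as did Ccr8 at 0.0322 and Cx3cr1 at 0.0125. In KD, Ccr7 was first at 28.3 CPM per kilobase ± 0.638 (SD, n = 3), followed by Cxcr6 at 24.8, Cxcr4 at 21.9, Cxcr3 at 19.8 and Ccr2 at 17.2, with no overlap between neighbours. When the longest transcript was used as the length, Ccr2 was at 23 in Male and 20.3 in KD. In Male its samples then stood above those of Cxcr4. In KD its mean then stood above that of Cxcr3, but the samples overlapped, at 19.6 to 20.7 for Ccr2 and 19.6 to 20.1 for Cxcr3. The 2 tables were scaled separately and hold cells handled in different ways, so Male and WT values are set side by side without a test.

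**Figure D1:**
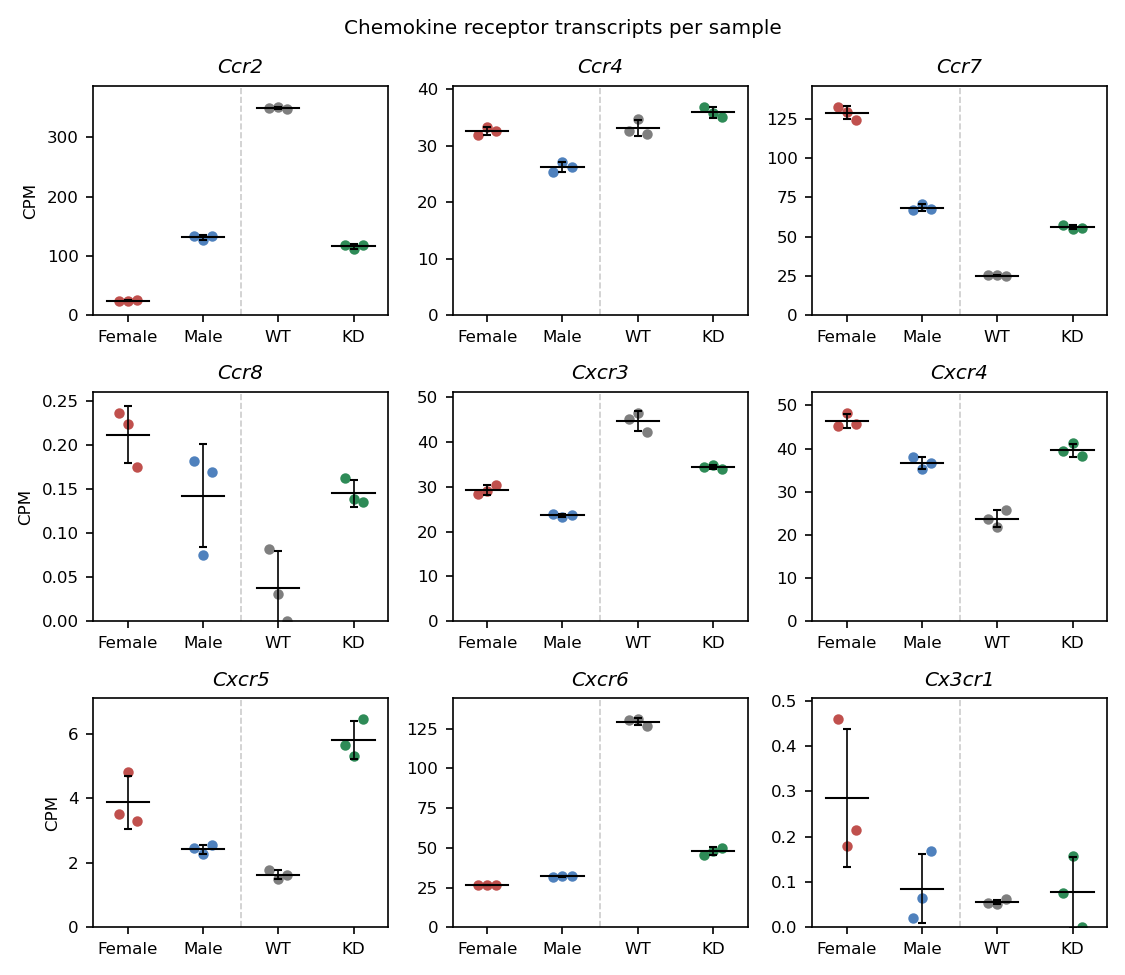
CPM (counts per 1000000) of each receptor in the 12 samples, 1 panel per gene, with linear axes that start at 0 and differ between panels. Points are samples, horizontal lines are group means and bars are SD (n = 3), which run below the axis for Ccr8 in WT and Cx3cr1 in KD. The dashed line separates the 2 tables. Ccr2 lies between 23.8 and 26.5 in Female and between 126 and 134 in Male.

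Whether receptor expression differed by sex was examined between Male and Female. Of the 9 receptors, 7 were called at an adjusted p under 0.05 (edgeR), 2 higher and 5 lower in Male. Of all 20208 genes tested, 49.8% were called, 23.5% higher in Male and 26.3% lower. Samples of the sexes did not overlap for 8 receptors, all but Ccr8, 2 of them higher and 6 lower in Male. Over all genes this held for 58.3%, with 28.6% higher and 29.7% lower. With so large a share of all genes called, a call by itself sets no receptor apart, and the sizes of the differences are given below. Over the 9 receptors the median log2 fold change was -0.34, and over all genes tested it was 0.01.

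Ccr2, the receptor for CCL2 and related monocyte-attracting chemokines, showed the largest difference. It was at 23.8, 24.8 and 26.5 CPM in the Female samples and at 134, 126 and 134 CPM in the Male samples. Each Male sample was far above each Female sample. Male was 5.25-fold higher, and the log2 fold change was 2.39 (SE 0.0427, edgeR adjusted p 6.09e-11). A change of at least 1 log2 unit was called in 7.28% of all genes, and Ccr2 was the one receptor of the 9 to reach it.

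Cxcr6, the receptor for the membrane-bound chemokine CXCL16, was also higher in Male, by far less. Its values were 26.7, 26.4 and 26.6 CPM in Female and 32, 32.1 and 32.4 CPM in Male. The samples of each sex lay close together and did not overlap, and the log2 fold change was 0.28 (SE 0.0342, edgeR adjusted p 6.32e-05).

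The receptors of lymphoid homing, Ccr7, Cxcr4 and Cxcr5, were lower in Male. Ccr7 was at 133, 129 and 124 CPM in Female and 66.9, 70.9 and 67.3 CPM in Male, or -0.91 as log2 fold change (SE 0.0327, edgeR adjusted p 6.25e-09). Cxcr4 was at 45.2, 48.3 and 45.7 CPM in Female and 38.1, 35.2 and 36.6 CPM in Male, which is -0.34 on the log2 scale (SE 0.0405, edgeR adjusted p 4.69e-05). For both, all 3 Male samples were below all 3 Female samples. Cxcr5, which binds CXCL13 and directs cells to B cell follicles, was much less abundant, at 3.53, 4.82 and 3.29 CPM in Female and 2.45, 2.28 and 2.56 CPM in Male. One Female sample was well above the other two, the groups still did not overlap, and the log2 fold change was -0.68 (SE 0.161, edgeR adjusted p 0.00538).

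Cxcr3, the receptor for the interferon-induced chemokines CXCL9, CXCL10 and CXCL11, was at 28.3, 29 and 30.4 CPM in Female and 24, 23.2 and 23.6 CPM in Male. Male was lower in every sample, and the log2 fold change was -0.31 (SE 0.0412, edgeR adjusted p 0.000107). Cxcr3 is the only X-linked gene of the 9. Ccr4, which binds CCL17 and CCL22, had nearly the same difference, at 31.9, 33.3 and 32.5 CPM in Female and 25.3, 27.1 and 26.1 CPM in Male (log2 fold change -0.31, SE 0.0402, edgeR adjusted p 8.07e-05).

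Ccr8 and Cx3cr1 had few counts. Ccr8, a receptor of skin-homing and regulatory T cells that binds CCL1 and CCL8, had 20, 21 and 17 counts in Female and 17, 7 and 15 counts in Male, and the samples overlapped. Its log2 fold change of -0.57 was not past the threshold (SE 0.476, edgeR adjusted p 0.363). Cx3cr1, the receptor for fractalkine and a marker of terminal effector cells, had 39, 17 and 21 counts in Female and 2, 6 and 15 counts in Male. Every Female sample was above every Male sample, but the log2 fold change of -1.73 was not past the threshold (SE 0.682, edgeR adjusted p 0.0587). Without Male replicate 3 it was -2.69 (adjusted p 0.019), and DESeq2 gave an adjusted p of 0.0375 with all samples. An annotated Cx3cr1 transcript spans several other genes, among them Wdr48 and Csrnp1, and its exons overlap those of the antisense gene Gm33858. That gene was at 0 in Male, WT and KD and at 0.0103 CPM in Female.

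**Figure D2:**
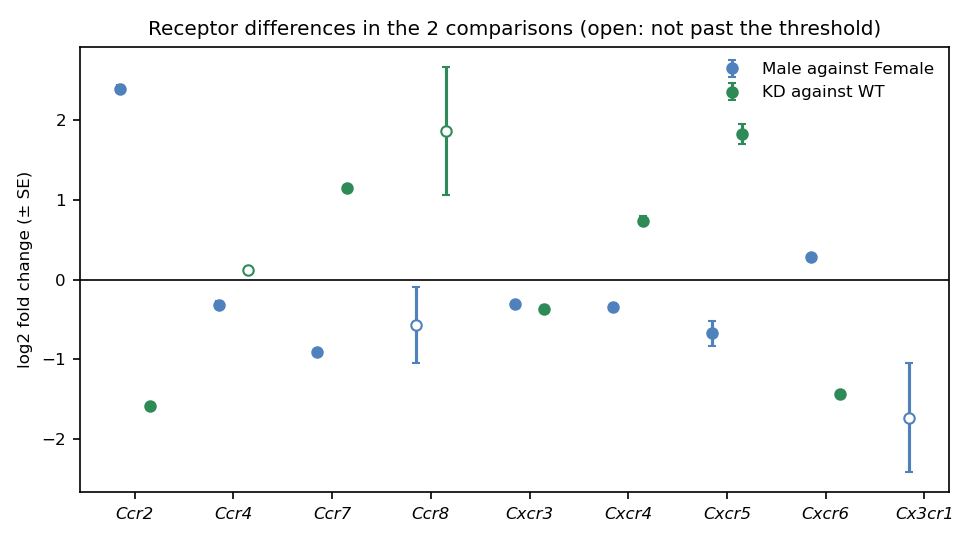
Log2 fold change of each receptor, with its standard error as a bar, for Male against Female (blue) and KD against WT (green); filled points passed the adjusted p threshold of 0.05 and open points did not. Cx3cr1 has no green point because it was not tested there. Ccr2 stands at 2.39 and -1.59, and Ccr7 at -0.91 and 1.15.

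Whether receptor expression differed after Kdm5d editing was examined between KD and WT. Of the 9 receptors, 8 passed the low-count filter and 6 were called, 3 higher and 3 lower in KD. Of all 20413 genes tested, 35.1% were called, 16.8% higher and 18.4% lower. WT and KD samples did not overlap for 8 receptors, all but Cx3cr1, 5 of them higher and 3 lower in KD. Over all genes this held for 46.8%, with 23.2% higher and 23.6% lower. An absolute change of at least 1 log2 unit was called in 3.96% of genes and in 4 receptors, Ccr2, Cxcr6, Ccr7 and Cxcr5.

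Ccr2, Cxcr6 and Cxcr3, receptors of effector cells that enter tissue, were lower in KD. Ccr2 was at 349, 351 and 347 CPM in WT and at 119, 112 and 118 CPM in KD. WT was 3-fold above KD, with all samples of a group close together, and the log2 fold change was -1.59 (SE 0.0257, edgeR adjusted p 3.71e-10). Cxcr6 was at 130, 131 and 127 CPM in WT and 45.4, 48.1 and 50.2 CPM in KD. Its log2 fold change was -1.43 (SE 0.0383, edgeR adjusted p 3.68e-09). Cxcr3 fell less, from 45, 46.4 and 42.1 CPM in WT to 34.3, 34.8 and 33.9 CPM in KD (log2 fold change -0.38, SE 0.0426, edgeR adjusted p 6.81e-05). In none of these 3 did a KD sample reach the lowest WT sample. Fyco1, whose intron holds Cxcr6 on the other strand, was lower too, at 28.8 against 41.4 CPM (log2 fold change -0.52, edgeR adjusted p 1.3e-05), and its part in the Cxcr6 counts was not tested.

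Ccr7, Cxcr4 and Cxcr5 were higher in KD. Ccr7 was at 25.6, 25.4 and 24.9 CPM in WT and 57.5, 55.1 and 55.7 CPM in KD. Every KD sample was more than 2-fold above every WT sample, and the log2 fold change was 1.15 (SE 0.0357, edgeR adjusted p 8.74e-09). Cxcr4 was at 23.6, 21.8 and 25.7 CPM in WT and 39.4, 41.2 and 38.2 CPM in KD (log2 fold change 0.74, SE 0.0594, edgeR adjusted p 6.05e-06). Cxcr5 was at 1.79, 1.49 and 1.63 CPM in WT and 5.64, 5.3 and 6.46 CPM in KD. Although its level stayed low, each KD sample was well above the WT samples, and the log2 fold change was 1.82 (SE 0.128, edgeR adjusted p 2.31e-06). Bcl9l, which shares exon bases with Cxcr5 on the opposite strand, moved the same way in both comparisons, with smaller log2 fold changes of -0.26 in Male and 0.18 in KD (edgeR adjusted p 1.06e-05 and 0.000891). It was far more abundant than Cxcr5, at 86.2 CPM in Female, 72 in Male, 93.8 in WT and 106.5 in KD. Its part in the Cxcr5 counts was not tested.

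Ccr4 was at 32.6, 34.8 and 32 CPM in WT and 36.8, 35.7 and 35 CPM in KD. All KD samples were above the WT samples by a small margin, and the log2 fold change of 0.11 was not past the threshold (SE 0.0435, edgeR adjusted p 0.0676). It passed without WT replicate 2, at 0.15 (adjusted p 0.0276). Ccr8 had 9, 3 and 0 counts in WT and 13, 15 and 13 counts in KD, with a fitted log2 fold change of 1.86 that was not past the threshold (SE 0.799, edgeR adjusted p 0.103). At these counts the fitted value depends on the prior count of the fit. Without WT replicate 1 it was 3.12 (adjusted p 0.049). Cx3cr1 had 6, 5 and 6 counts in WT and 6, 17 and 0 counts in KD, and was not tested.

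Of the receptors, 6 were called in both comparisons, and 5 of these, Ccr2, Ccr7, Cxcr4, Cxcr5 and Cxcr6, moved in opposite directions. Ccr2 and Cxcr6 were lower in KD but higher in Male, and Ccr7, Cxcr4 and Cxcr5 the reverse. Cxcr3 was lower in both. Of the 5014 genes called in both comparisons over the whole tables, 55.1% moved in opposite directions. The comparisons share no sample, and their difference was not tested for any receptor.

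The make-up of the receptor set was described as the share of each gene in the summed CPM per kilobase of the 9. Ccr7 made up 47.5% ± 1.16 (SD, n = 3) of the sum in Female and 30.3% ± 1.05 (SD, n = 3) in Male, and Ccr2 2.7% ± 0.18 (SD, n = 3) and 17.1% ± 0.545 (SD, n = 3). In WT, Cxcr6 and Ccr2 made up 36.9% and 28.5%, and Ccr7 7.05%. In KD those shares were 19.8%, 13.7% and 22.6%. The sum itself was lower in Male than in Female, at 113.9 against 137 CPM per kilobase, and lower in KD than in WT, at 125.5 against 181.5. Groups did not overlap for any of these shares and sums. An exact permutation test (two-sided) gave 0.1 for each, which is the lowest p possible with 3 samples a group. Cxcr3 made up 12.3% in Female and 12% in Male, and there the samples overlapped (exact permutation p 0.5).

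**Figure D3:**
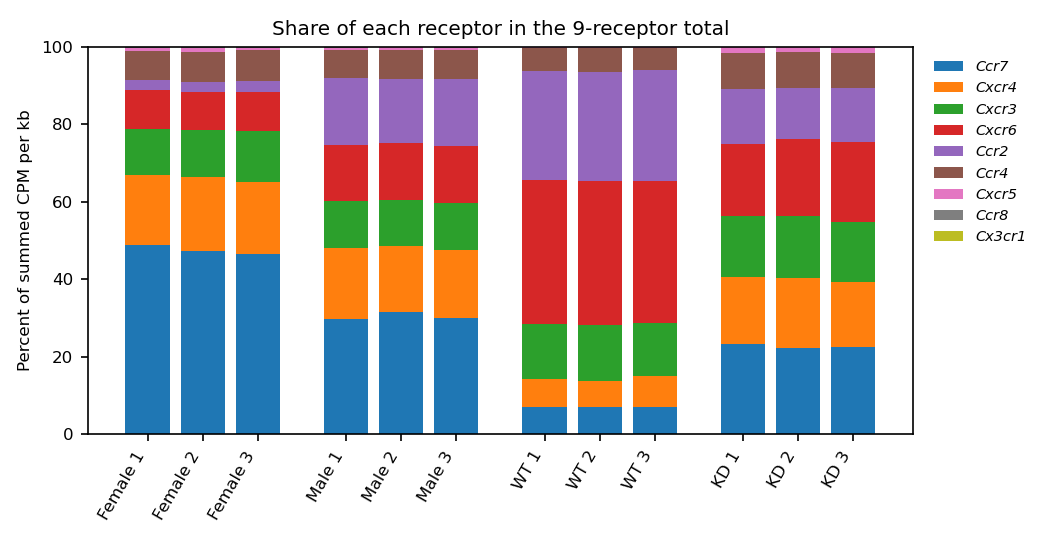
Share of each receptor in the summed CPM per kilobase of the 9 genes, as a stacked bar for each of the 12 samples, in percent. The Ccr7 segment falls from 47.5% in Female to 30.3% in Male on average, and the Cxcr6 and Ccr2 segments together fill most of the WT bars.

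Other chemokine receptors were examined as a list of 14. Between the sexes, where 49.8% of all genes were called, 5 passed the filter and 1 was called. It was Ccrl2, an atypical receptor, at 6.66 CPM in Female and 11.8 CPM in Male (log2 fold change 0.82, SE 0.0735, edgeR adjusted p 5.43e-06). In KD against WT, 35.1% of all genes were called and 18.4% were called lower. Of the list, 7 passed the filter there and 3 were called, each lower in KD. Ccrl2, the XCL1 receptor gene Xcr1 and Ccr1 had log2 fold changes of -1.50, -1.41 and -1.06 (edgeR adjusted p 7.13e-05, 0.000111 and 0.0229), all at group means below 3 CPM. The Ccr1 call was lost without WT replicate 3, KD replicate 1 or KD replicate 3 (adjusted p 0.09, 0.0721 and 0.0533). Of the 31-base words in Ccr2 transcripts, 2.39% also occur in transcripts of other genes, so a small part of the Ccr2 reads could be shared.

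Ccr2, Cxcr6, Xcr1 and Ccr1 lie together on chromosome 9. The stretch from Ccr9 to Ccr2 (chr9:123678439-124113557) was chosen after their values were seen and holds 9 protein-coding genes. In KD against WT, where 18.4% of all genes were called lower, 7 of the 9 were tested and 6 were called, each lower. Because the choice rested on Ccr2, Cxcr6, Xcr1 and Ccr1, which are among these 6, the count cannot be weighed against that share. The other called genes, Lztfl1 and Fyco1, encode no receptor and had log2 fold changes of -0.70 and -0.52. Ccr9, a gut-homing receptor gene at the other end, had -0.07 and was not called (edgeR adjusted p 0.872). Between the sexes the stretch did not move one way. Of 6 tested genes, 2, Cxcr6 and Ccr2, were higher in Male and 2, Lztfl1 and Fyco1, were lower. Of all genes, 23.5% were called higher in Male and 26.3% lower.

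**Figure D4:**
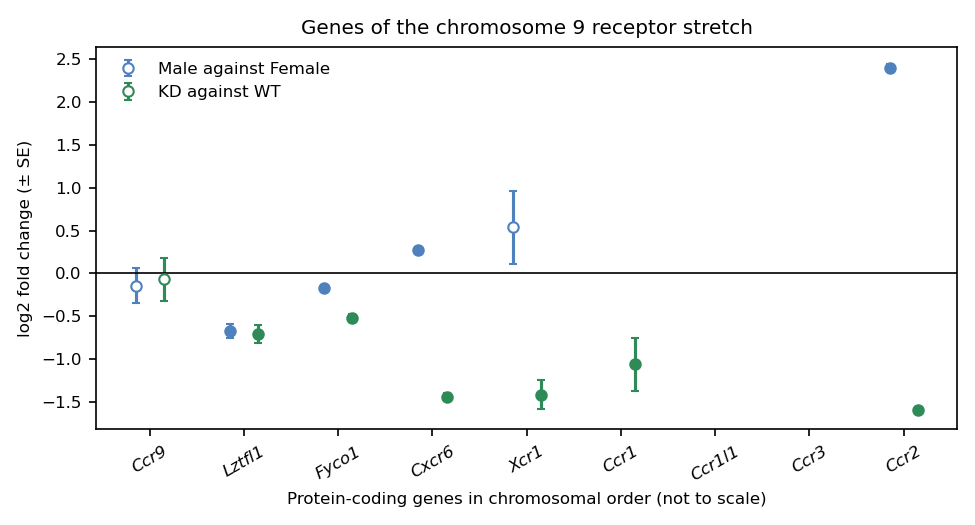
Log2 fold change with its standard error for the 9 protein-coding genes from Ccr9 to Ccr2 on chromosome 9, in chromosomal order and not to scale, for Male against Female (blue) and KD against WT (green); open points did not pass the threshold, and genes without a point were not tested. The filled green points of 6 genes lie below 0, between -0.52 and -1.59.

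Most ligands of the receptors did not pass the low-count filter. Of 18 identifiers for 16 ligand genes, 2 were tested between the sexes and 3 between KD and WT, and 1 was called in each. Of all genes, 49.8% and 35.1% were called. Cxcl10, a CXCR3 ligand, was at 8.32, 8.56 and 8.52 CPM in Female and 11.6, 11.7 and 11.1 CPM in Male (log2 fold change 0.44, SE 0.0645, edgeR adjusted p 0.000236). It was at 1.61, 1.67 and 2.13 CPM in WT and 1.21, 0.866 and 0.611 CPM in KD (log2 fold change -1.01, SE 0.251, edgeR adjusted p 0.01). Cxcl16, the CXCR6 ligand, was named after its values were seen. It was tested in both and called in neither, with log2 fold changes of 0.50 and 0.11 (edgeR adjusted p 0.105 and 0.833).

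The machinery downstream of the receptors was examined with 30 genes, all of which were tested. Between the sexes 25 were called, 11 higher and 14 lower in Male, where 23.5% of all genes were called higher and 26.3% lower, with a median log2 fold change of -0.02. The 4 with the smallest p were Coro1a, an actin regulator, at 0.51, the receptor kinase Grk2 at -0.33, Rgs1, an inhibitor of Gi signalling, at -0.91, and Pik3cg, the catalytic subunit of PI3K-gamma, at 0.53 (edgeR adjusted p 3.93e-09, 4.22e-08, 5.52e-08 and 7.64e-08). Rgs1 was at 26.6 CPM in Female and 14.1 CPM in Male. As a subset picked after its values were seen, the list has 7 RGS genes, of which 6 were called lower in Male, against 26.3% of all genes. For Rgs19, the exception in that subset, the value was 0.10 (edgeR adjusted p 0.0881). In KD against WT 4 of the 7 were called lower, Rgs16 was called higher and 2 were not called. Of all genes, 18.4% were called lower there and 16.8% higher.

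In KD against WT 24 of the 30 were called, 3 higher and 21 lower, where 16.8% of all genes were called higher and 18.4% lower, with a median log2 fold change of -0.30 against 0.01 over all genes. Prex1, a Rac exchange factor that responds to G protein subunits and PI3K products, was at 541, 551 and 547 CPM in WT and 263, 267 and 258 CPM in KD. The KD samples were far below the WT samples (log2 fold change -1.06, SE 0.0191, edgeR adjusted p 7.91e-10). Rap1b, a small GTPase of integrin activation, had -0.51 as log2 fold change, and the adhesion kinase gene Ptk2b had -0.44 (edgeR adjusted p 1.95e-07 and 3.45e-07). Gnai2, Pik3r6 and Arrb2 were picked after their values were seen. Of them, the inhibitory G protein gene Gnai2 had -0.32, Pik3cg had -0.39, and its regulatory partner Pik3r6 had -0.95 (edgeR adjusted p 1.66e-06, 7.7e-07 and 0.000101). The 3 called higher were Arrb1, which encodes beta-arrestin 1, at 0.60, Rgs16 at 0.60 and Elmo1, a partner of DOCK2, at 0.32 (edgeR adjusted p 2.45e-07, 0.00239 and 6.98e-06). Arrb2, a close relative of Arrb1, was lower, at -0.35 (edgeR adjusted p 7.19e-07).

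**Figure D5:**
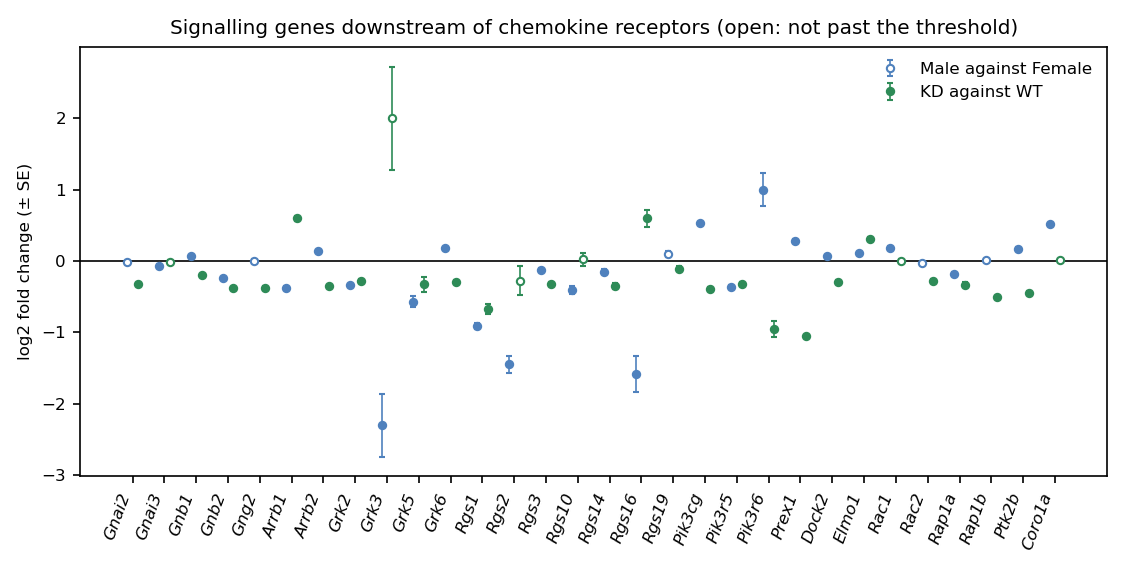
Log2 fold change with its standard error for 30 genes that act downstream of chemokine receptors, for Male against Female (blue) and KD against WT (green); filled points passed the adjusted p threshold of 0.05. In KD against WT 21 filled points lie below 0 and 3 above it.

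Transcription factors known to act on these receptors in T cells were given as a list of 11. Between the sexes 8 were called, 1 higher and 7 lower in Male, against 23.5% and 26.3% of all genes. Tcf7, a factor of naive and memory cells, was at 420 CPM in Female and 154 CPM in Male (log2 fold change -1.45, SE 0.0222, edgeR adjusted p 2.07e-11). Klf2, which promotes lymphoid recirculation, had -1.38 and Foxo1, an activator of Klf2 and Ccr7, had -0.47, while Eomes, a T-box factor of effector and memory cells, had 1.69 (edgeR adjusted p 1.22e-09, 5.26e-08 and 3.47e-10). In KD against WT 6 were called, 2 higher and 4 lower, against 16.8% and 18.4% of all genes. Runx3, a factor of the CD8 lineage, had -0.67, Foxo1 -0.26 and Zfp683, which encodes HOBIT, -0.35, and Tcf7 had 0.30 (edgeR adjusted p 1.55e-08, 2.16e-05, 0.000855 and 8.26e-05). Klf2 and Eomes were not called there, at 0.10 and 0.03 (edgeR adjusted p 0.143 and 0.321).

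The genes most like each receptor were sought among 11948 genes by the root mean square difference of log2 CPM over the 12 samples, each value centred on its table. For Ccr2 the nearest were the interferon-response genes Irf7, Ifi213 and Cmpk2, at 0.06, 0.1 and 0.14 log2 units. Irf7 had log2 fold changes of 2.38 and -1.47, beside 2.39 and -1.59 for Ccr2. For Cxcr6 they were Mxd1, a MAX-binding repressor gene, at 0.04, then Wdr31 at 0.08 and Rap1gap2 at 0.1. For Ccr7 they were Sox12, Nfix and C130089K02Rik, at 0.07 to 0.08, and for Cxcr4 Irf4, Slc19a2 and Pidd1, each at 0.07. For Cxcr5 they were Rgs12, Jag2 and Ptprs, at 0.14 to 0.16. Ccr4 and Cxcr3, with small differences in both comparisons, had neighbours at 0.03 to 0.04, Chek1, Btbd1 and Taok1 for Ccr4 and Hbs1l, Sos2 and Kidins220 for Cxcr3.

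Markers of other cells were set beside these results. The myeloid genes summed to 2.27 to 3.02 CPM in Female and 3.32 to 3.51 CPM in Male. In WT they summed to 6.2 to 7.23 CPM and in KD to 4.42 to 5.38 CPM. In each comparison the sum was higher where Ccr2 was higher, but the single genes did not all follow it. Of these 6 genes, Cd68 gave most of the sum, Adgre1 was at 0 counts in Female, WT and KD, and Cd14 and Lyz2 reached at most 0.197 and 0.103 CPM. B cell genes summed to 3.84 to 3.97, 3.81 to 4.76, 5.4 to 6.41 and 4 to 5.23 CPM in Female, Male, WT and KD. Cd79b gave most of that sum, at 2.92, 3.41, 4.93 and 3.61 CPM. The 3 CD4 T cell genes summed to 3.49 to 5.11 CPM in Female, 4.93 to 6.31 in Male, 4.04 to 4.37 in WT and 2.31 to 3.32 in KD. Foxp3 gave most of that sum, and Cd4 had 14 to 19 counts in Female, 0 in Male and 0 to 12 in WT and KD. The 2 NK cell genes summed to 0.165 to 0.457 CPM in Female, 0.486 to 0.531 in Male, 1.5 to 1.6 in WT and 0.59 to 1.24 in KD. This sum, too, was higher where Ccr2 was higher, with no overlap in either comparison. Klrb1c gave most of it and was called lower in KD (log2 fold change -0.86, edgeR adjusted p 0.041) but was not called between the sexes. Group means of Ncr1, the other NK cell gene, went the other way in both comparisons. The 3 dendritic cell genes summed to at most 0.11 CPM. The part of other cells in the receptor differences was not tested.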

How the data were processed

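Total RNA of 12 samples, 3 in each of 4 groups, was sequenced after ribosomal RNA depletion with a stranded kit, per the labels' protocols. The authors deposited gene counts, as whole numbers, in 2 tables: one holds the sexes, the other WT with KD. The submitters' processing notes name bcl2fastq 2.20.0, HISAT2, StringTie, DESeq2 and mm10, and the annotation and the use of strand are not given in the sources used here. If the counts are StringTie estimates, they need not behave as independent reads.

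Of 55487 identifiers, 55227 matched GENCODE M21 and 260 did not. Each table was fitted separately with edgeR 4.0.16 in R 4.3.3 (filterByExpr, TMM factors, quasi-likelihood test, Benjamini-Hochberg adjustment over all genes tested, threshold 0.05). CPM are counts per 1000000 with TMM-scaled library sizes. Log2 CPM with 0.5 CPM added gave the likeness between genes. Shares were compared by exact permutation. DESeq2 1.42.0 and limma 3.58.1 served as alternatives, beside other scalings, filters, depths and replicates left out, and the scripts were tested on simulated data.

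The receptors and gene lists were chosen with earlier results of these data known. Named genes are all 9 receptors, up to 4 genes of each other list with the smallest p among those called, the 3 genes most like each receptor, and overlapping or neighbouring genes. Any other gene named with a fold change was chosen after its values were seen, except Kdm5d, the check of the labels. Some genes of the lists are not reported here.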

Additional observations from a re-analysis of the deposited data

How the results depend on the processing

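Alternatives were run for the 9 receptors and for the genes with the smallest p of the other lists, and none of their fold changes reversed. They were not run for overlapping, neighbouring or most-alike genes or for genes picked after their values were seen. Requiring an absolute log2 fold change of at least 1 left 1 of the receptors, 0 other chemokine receptors, 0 ligands, 4 signalling genes and 3 transcription factors called in Male against Female, and 1 signalling gene and 0 transcription factors in KD against WT. Requiring a mean log2 CPM of at least 1 left 0 other chemokine receptors and 0 ligands called in KD against WT, because fewer genes were tested. With each replicate left out in turn, 7 to 8 receptors were called between the sexes and 6 to 7 between KD and WT, and the ligand count in KD against WT was 1 to 2, with 2 without WT replicate 3. Of single genes, Cx3cr1 in Male was also called with limma-voom and with thinned counts (adjusted p 0.0387 and 0.034). Ccr4 in KD was called with upper-quartile scaling, the stricter filter, a fit of all 12 samples, and counts divided by 4 (adjusted p 0.0245, 0.0316, 0.0425 and 0.0496). Ccr8 in KD was called with limma-voom (adjusted p 0.0409), and Ccr1 was not called in the fit of all 12 samples (adjusted p 0.286). The causes were not tested. The labels do not say whether replicate numbers pair the samples. Same-numbered deviations had a mean correlation of 0.0053 in the first table and -0.008 in the second. Such low values show no large effect shared by same-numbered samples, but they cannot exclude pairing. With the replicate block, 7 receptors were called between the sexes and 6 between KD and WT, as without it. Ccr8 and Cx3cr1 had at most 39 counts in any sample.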
